A study of Mus musculus with 4 samples.

Results

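The 31 genes described here are established transcriptional targets of the tumour suppressor p53, taken by name from the 50559 genes of a read count table for mouse embryonic stem cells (ESCs). All 31 symbols were found, and all were among the 18586 genes that averaged at least 10 reads over the 4 libraries. The genes were taken by name, with no threshold on a measured value, but earlier results of these data were known when the list was drawn up. p53 is a transcription factor that is kept low by the ubiquitin ligase Mdm2 and accumulates after DNA damage and other stresses. It binds DNA as a tetramer at pairs of a short motif and raises the transcription of genes for cell cycle arrest, apoptosis, DNA repair and metabolism, among them *Mdm2* itself, which closes a negative feedback loop. Mouse ESCs carry abundant p53 and have a short G1 phase, and p53 in these cells has been linked to the 2-cell-like (2C-like) state, a rare condition of cultured ESCs marked by transcripts of the 2-cell embryo.

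RNA-seq of E14 ESCs, cultured on gelatin with serum replacement and leukemia inhibitory factor, was done to compare cells depleted of *Ythdf2* with controls and to ask whether the m6A-binding activity of YTHDF2, a reader of N6-methyladenosine in RNA, is needed to restore their transcripts. There were 4 groups. The control, shScram+EV, carried a scrambled hairpin and an empty vector. The knockdown, shYthdf2+EV, carried a *Ythdf2* hairpin and an empty vector. In shYthdf2+DF2WT, here called the wild-type rescue, the *Ythdf2* hairpin was combined with wild-type YTHDF2. The mutant rescue, shYthdf2+DF2Mut, combined that hairpin with a mutated YTHDF2. All 4 groups carry a hairpin and a second vector. Per the study's methods the knockdown lines were made with lentivirus and puromycin selection in ESCs with a tdTomato transgene driven by the *MERVL* promoter, and the labels do not say which hairpin was used. The study's methods describe replicates, which the labels of these libraries do not show. Each group had 1 library, so no difference below has a replicate check, no test was possible, and every value compares libraries and not conditions. In bulk RNA, fewer cells of a type and less RNA per cell cannot be told apart.

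Total counts ranged from 31533129 to 35742335 reads per library, and the members took between 0.301% and 0.383% of them. Mitochondrial genes took 8.44% of the reads in the control and between 6.14% and 6.75% in the others. All 14 pluripotency markers were above the floor of 3 reads in every library, with summed levels between 7607 and 8118 CPM (reads per 1000000 of the scaled library size). The fibroblast markers *Lum* and *Dcn* had 0 reads in every library, which allows up to 3 reads, or between 0.0835 and 0.0949 CPM by library. Other fibroblast markers were detected. Of the 10 on the list 5 averaged at least 10 reads, among them *Pdgfrb* at 747 reads in the control, 394 in the knockdown, 731 in the wild-type rescue and 393 in the mutant rescue. *Ythdf2* had 2806 reads in the control, 662 in the knockdown, 7661 in the wild-type rescue and 6925 in the mutant rescue. The knockdown library thus held less *Ythdf2* RNA than the control, and both rescue libraries held more, where reads of the construct and of the endogenous gene were not separated.

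The promoters of the members were examined for the DNA motif that p53 recognises, since the list is defined by this factor. The RefSeq promoter table for GRCm38.p6 covers 250 bases before to 50 bases after each start site, and 23 of the 31 members were in it. The p53 consensus decamer, a motif of 10 bases that reads the same on both strands, was present in 10 of these 23 genes (43.5%) and in 2582 of all 27025 genes (9.55%). A pair of decamers with at most 13 bases between them was present in 1 of the 23, *Cdkn1a* (4.35%), and in 20 of all genes (0.074%). A match describes letters only and does not show binding, and members without a match may be bound elsewhere, for example in an intron. The pair in *Cdkn1a* and the matches in 3 abundant members whose decamer lies outside annotated exons are shown 5′ to 3′ on the strand of the gene, with the decamers in capitals.
Cdkn1a: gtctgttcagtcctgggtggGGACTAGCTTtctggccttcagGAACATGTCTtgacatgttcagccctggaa
Mdm2: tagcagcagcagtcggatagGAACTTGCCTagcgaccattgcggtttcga
Ccng1: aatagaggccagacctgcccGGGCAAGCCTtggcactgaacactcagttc
Bax: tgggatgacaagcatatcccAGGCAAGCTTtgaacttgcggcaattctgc

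In GRCm38.p6 the *Cdkn1a* stretch lies at chr17:29090886-29090957 on the plus strand, upstream of the first exon. Its decamers begin 73 and 51 bases before the upstream start site of the gene, with 12 bases between them. They begin 2863 and 2841 bases before its downstream start site, whose own window holds no decamer. *Mdm2* is at chr10:117710915-117710964, *Ccng1* at chr11:40755442-40755491 and *Bax* at chr7:45467070-45467119, all on the minus strand. Their decamers begin 186, 185 and 201 bases before the start site. In the knockdown against the control the 10 genes with a decamer had a median log2 ratio of 0.24, and 9 of them were higher. The 13 genes without one had a median of 0.45, and 10 of them were higher, so the genes with the motif in this window did not have the larger ratios.

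The members differed widely in level. Per kilobase of exon, the mean over the 4 libraries ran from 0.629 FPKM for *Fas* to 138 FPKM for *Ccng1*, followed downwards by *Bax* at 133 and *Gtse1* at 97.2 FPKM. *Cdkn1a*, which encodes the cyclin-dependent kinase inhibitor p21, was at 40.4 FPKM and *Mdm2* at 46.4 FPKM. Ranked by the scaled level of each gene, the control was the lowest library for 16 of the 31 members and the highest for 2. By contrast, the knockdown was the lowest for none and the highest for 11. The wild-type rescue was the lowest for 10 and the highest for 6, and the mutant rescue was the lowest for 5 and the highest for 12. Summed over the members the level was 3080 CPM in the control, 3808 in the knockdown, 3168 in the wild-type rescue and 3775 in the mutant rescue, so the sum was high in the knockdown and mutant rescue libraries and low in the control and the wild-type rescue. Members of high level weigh most in this sum, and *Ccng1* alone was at 407 CPM in the wild-type rescue and 552 in the mutant rescue. Of the 31 members 12 were lower in the mutant than in the wild-type rescue.

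**Figure D1:**
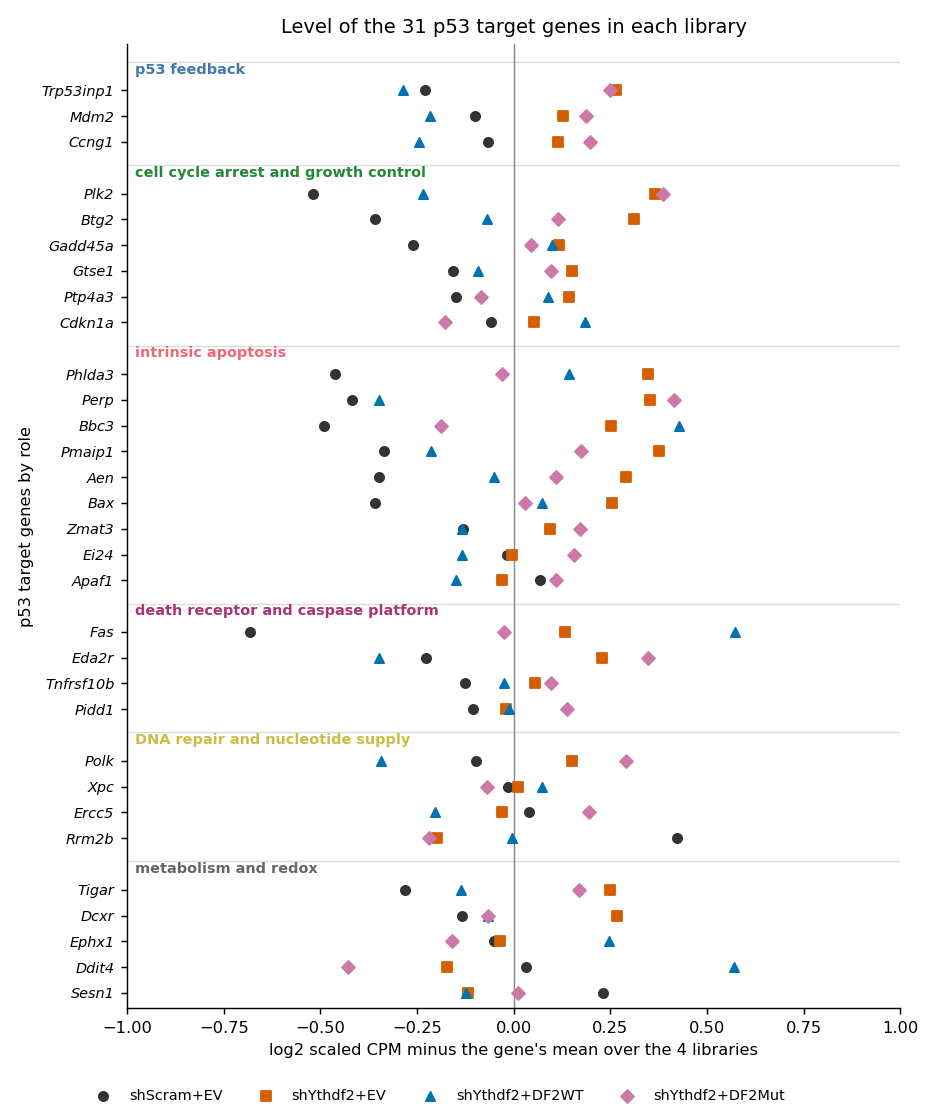
Level of each p53 target gene in the 4 libraries, as log2 scaled CPM minus the mean of that gene over the libraries (x axis), with genes grouped by role (y axis) and 1 symbol per library. shScram+EV is the leftmost symbol for 16 of the 31 genes and shYthdf2+EV for none.

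The first comparison, the knockdown against the control, asks what follows knockdown. Of the 31 members 26 were higher in the knockdown library and 5 were lower, with a median log2 ratio of 0.29 (range -0.62 to 0.88) beside a median of -0.0015 over all genes tested. The 95% counting interval of the ratio excluded 0 for 21 of the higher and 4 of the lower members, and it included 0 for 6. It excluded 0 for 23.2% of all genes tested as higher and 22.8% as lower, and for 30.2% in each direction among the 10817 genes averaging at least 200 reads, where 30 of the members lie. None differed by 2-fold, whereas 12.8% of all genes tested did (2380 genes, of which 186 higher and 89 lower averaged at least 200 reads). By a second rule, at least 1.5-fold with a counting interval that excludes 0, 8 of the 31 members were higher, beside 8.58% of all genes tested, and 1 was lower, beside 7.61%. Among the genes averaging at least 200 reads these shares were 5.6% higher and 4.59% lower. The values thus describe many modest differences in 1 direction rather than a few large ones.

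**Figure D2:**
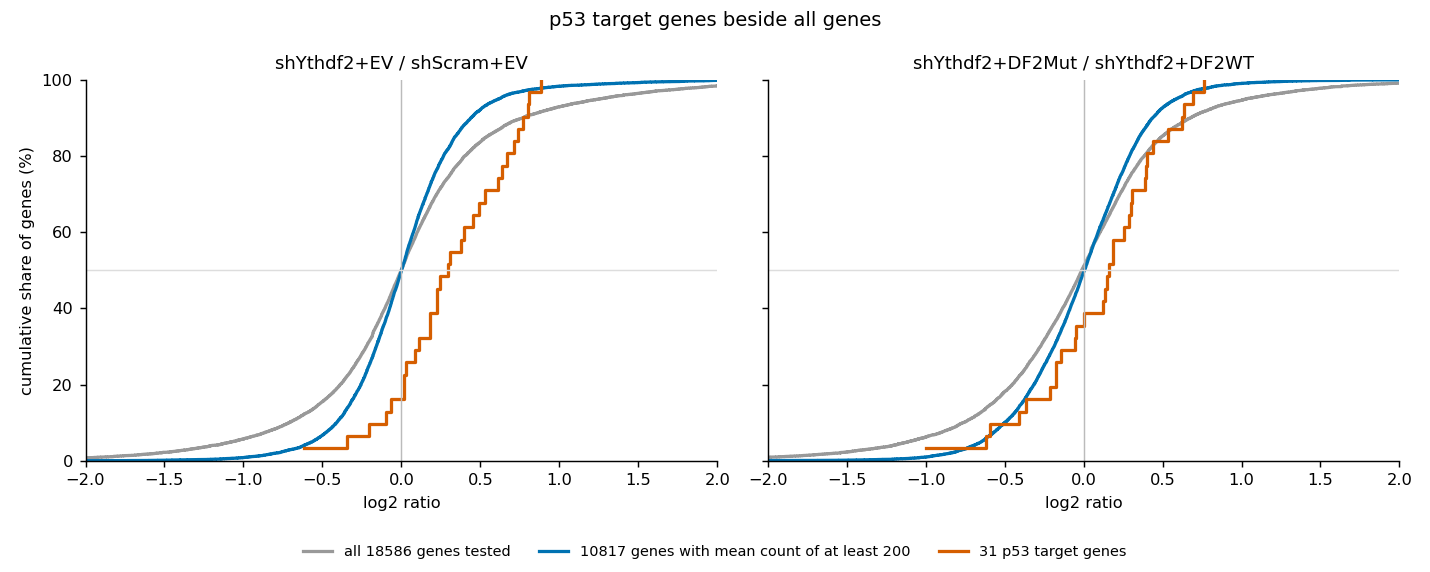
Cumulative share of genes (y axis, percent) by log2 ratio (x axis) for the 31 p53 target genes, all genes tested and genes averaging at least 200 reads. In shYthdf2+EV against shScram+EV (left) the members' curve is to the right of both others over most of its range, with a median of 0.29, and in shYthdf2+DF2Mut against shYthdf2+DF2WT (right) the median is 0.16.

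Apoptosis genes held 6 of the 8 members above 1.5-fold in the knockdown library. Of the 9 members that act in the mitochondrial pathway of apoptosis or promote it, 8 were higher and the median log2 ratio was 0.64. *Phlda3*, a pleckstrin homology domain protein that restrains Akt, was at 41.1 CPM in the control, 72.0 in the knockdown, 62.5 in the wild-type rescue and 55.4 in the mutant rescue. Its log2 ratio in the knockdown was 0.81 (95% counting interval 0.67 to 0.95), and all 3 libraries with the *Ythdf2* hairpin were above the control. *Perp*, a tetraspan membrane protein of desmosomes (mm39, chr10:18720819-18732821), was at 39.8, 67.8, 41.7 and 70.8 CPM in the same order of libraries, a knockdown ratio of 0.77 (0.63 to 0.91). The control and the wild-type rescue were low for *Perp*, and the knockdown and mutant rescue were high.

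*Bbc3*, which encodes the BH3-only protein PUMA, was at 15.0 CPM in the control, 25.1 in the knockdown, 28.4 in the wild-type rescue and 18.5 in the mutant rescue. Its knockdown ratio was 0.74 (0.51 to 0.97). The wild-type rescue had the highest level here, but within counting error of the knockdown (log2 ratio 0.18, -0.02 to 0.36). Relative to genes of similar GC content and length, that ratio was -0.0017. *Pmaip1*, which encodes the BH3-only protein NOXA, was at 71.1, 116, 77.4 and 101 CPM in the same order, with a knockdown ratio of 0.71 (0.60 to 0.82). *Aen*, a nuclease that enhances apoptosis, was at 138, 215, 170 and 190 CPM (ratio 0.64, 0.56 to 0.71). *Bax*, the pore-forming effector that permeabilises the mitochondrial outer membrane (mm39, chr7:45111119-45116344), was at 96.8, 148, 131 and 127 CPM (ratio 0.61, 0.52 to 0.70). For *Aen* and *Bax* both rescue libraries lay between the control and the knockdown. The other members of this group did not reach 1.5-fold: the RNA-binding protein gene *Zmat3* had a ratio of 0.23, *Ei24*, which encodes an endoplasmic reticulum protein, 0.01, and *Apaf1*, the scaffold of the apoptosome, -0.10.

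All 6 members for cell cycle arrest and growth control were higher in the knockdown beyond counting error, with a median log2 ratio of 0.34. *Plk2*, a polo-like kinase induced by stress (mm39, chr13:110531578-110537378), had the largest ratio of all members. Its level was 69.9 CPM in the control, 129 in the knockdown, 85.1 in the wild-type rescue and 131 in the mutant rescue, and the knockdown ratio was 0.88 (0.78 to 0.99). The knockdown and the mutant rescue were nearly level, and the wild-type rescue was closer to the control. *Btg2*, an antiproliferative adaptor of the CCR4-NOT deadenylase, was at 64.3, 102, 78.6 and 89.3 CPM in that order (ratio 0.67, 0.56 to 0.78). *Gtse1*, a microtubule-associated protein that binds p53 in G2 phase, was at 245, 303, 256 and 292 CPM (ratio 0.31, 0.25 to 0.37). *Gadd45a*, a DNA damage sensor, and *Ptp4a3*, a phosphatase, had ratios of 0.38 and 0.29. Of the exon bases of *Gadd45a*, 19.4% are shared with the antisense gene *E230016M11Rik*, so its counts are uncertain. Among the other members 5 share between 0.326% and 4.79% of their exon bases with another gene.

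*Cdkn1a* was among the members with small differences, although it is the best known p53 target. Its level was 78.6 CPM in the control, 84.8 in the knockdown, 93.1 in the wild-type rescue and 72.3 in the mutant rescue. The knockdown ratio was 0.11 (0.0011 to 0.22), and the highest and lowest of the 4 libraries were the rescues. None of the 3 p53 feedback genes reached 1.5-fold in the knockdown. *Mdm2* (mm39, chr10:117524780-117546663) was at 319, 373, 294 and 389 CPM in the control, the knockdown, the wild-type rescue and the mutant rescue, a knockdown ratio of 0.23 (0.17 to 0.28). *Ccng1*, cyclin G1, which directs a phosphatase to Mdm2, was at 460, 522, 407 and 552 CPM (ratio 0.18, 0.14 to 0.23). *Trp53inp1*, a stress protein that promotes p53 activity, had a ratio of 0.49 (0.44 to 0.55). For all 3 feedback genes the wild-type rescue had the lowest level. For *Trp53inp1* it was within counting error of the control (log2 ratio -0.06, -0.12 to 8.5e-05). Relative to genes of similar GC content and length, the wild-type rescue was above the control for *Mdm2* (0.04) and *Trp53inp1* (0.14). It stayed below the control for *Ccng1* (-0.05).

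The 4 members for death receptors and caspase platforms were all higher in the knockdown, 2 of them within counting error, and the remaining roles were mixed. *Eda2r*, a receptor of the tumour necrosis factor family, was at 82.3 CPM in the control, 113 in the knockdown, 75.6 in the wild-type rescue and 122 in the mutant rescue, with a knockdown ratio of 0.45 (0.35 to 0.55). *Fas*, the death receptor, had only 29, 58, 72 and 46 reads in the same order, and its ratio of 0.80 was within counting error (-0.10 to 1.90). The TRAIL receptor gene *Tnfrsf10b* and *Pidd1*, the scaffold of the PIDDosome, had ratios of 0.18 and 0.08. Metabolic and redox members ranged from 0.53 for *Tigar*, a regulator of glycolysis, to -0.35 for *Sesn1*, a sestrin, with the reductase gene *Dcxr* at 0.40 and the epoxide hydrolase gene *Ephx1* at 0.02.

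Of the 4 members for DNA repair and nucleotide supply 2 were higher and 2 lower. *Rrm2b*, the p53-inducible subunit of ribonucleotide reductase, was the 1 member lower by over 1.5-fold. It was at 19.8 CPM in the control, 12.9 in the knockdown, 14.8 in the wild-type rescue and 12.7 in the mutant rescue, a knockdown ratio of -0.62 (-0.87 to -0.37). All 3 libraries with the *Ythdf2* hairpin were below the control. *Polk*, a translesion DNA polymerase, was at 51.2, 60.8, 43.2 and 67.1 CPM in the same order (knockdown ratio 0.25, 0.11 to 0.38). The excision repair genes *Xpc* and *Ercc5* had ratios of 0.03 and -0.07, both within counting error.

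**Figure D3:**
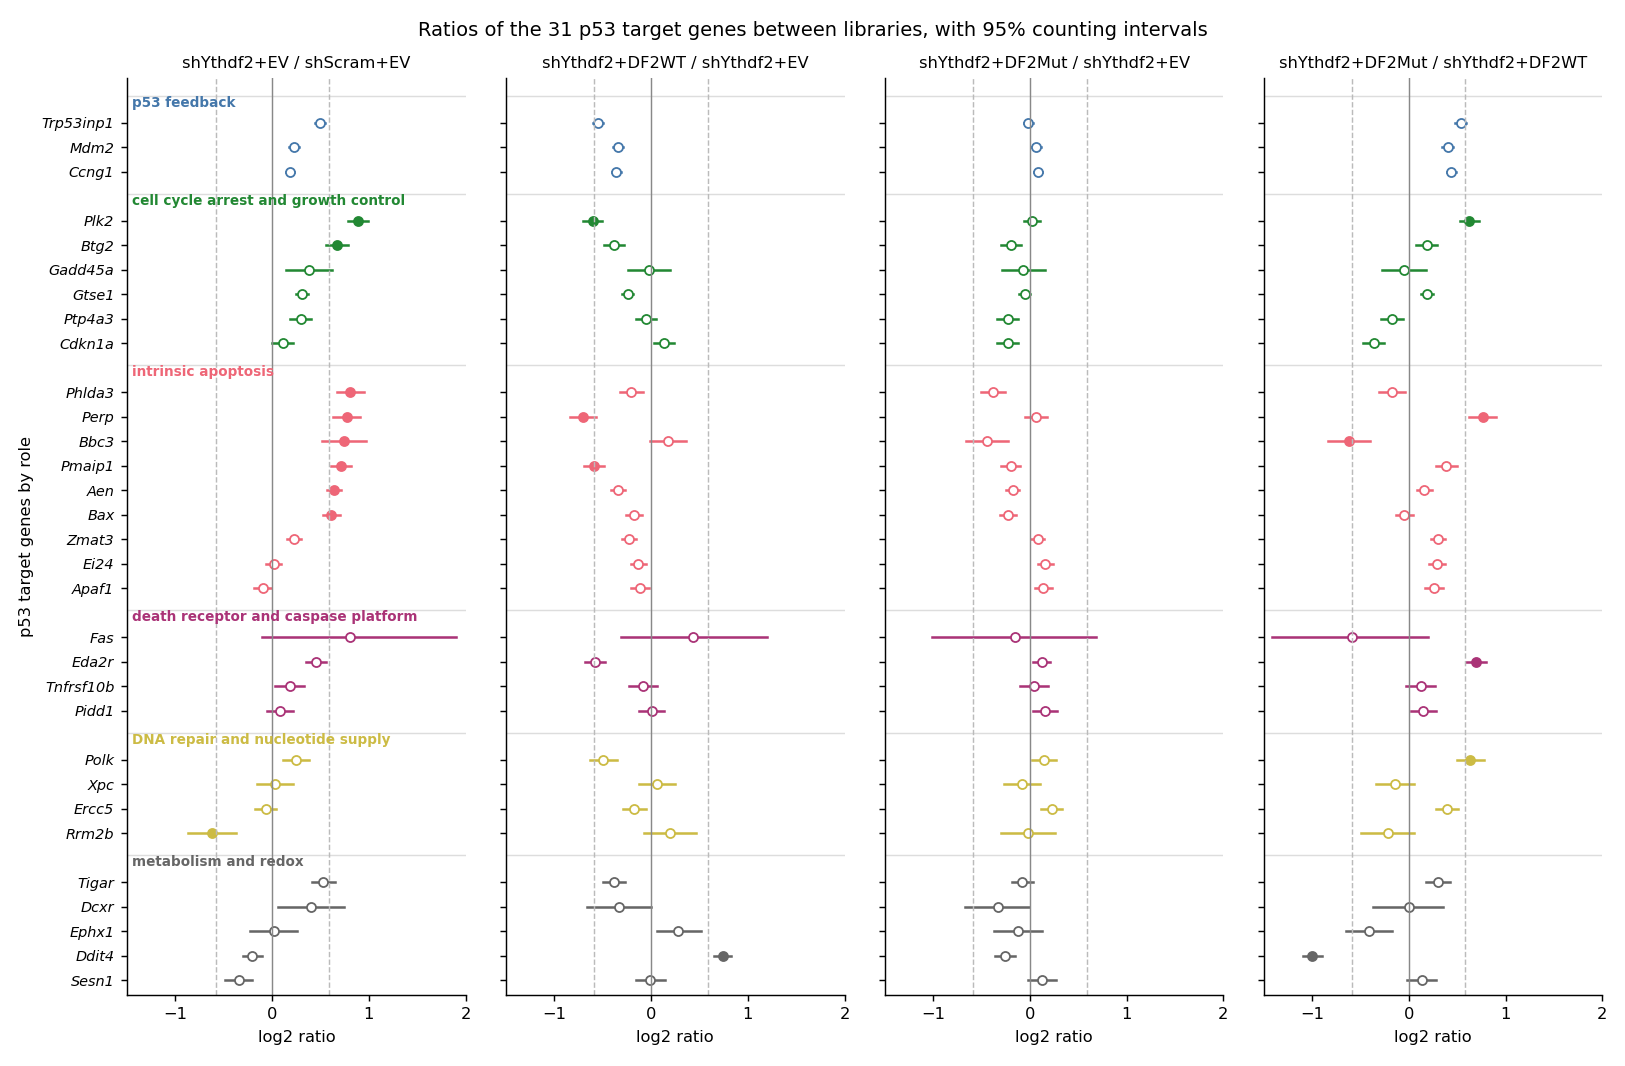
Log2 ratios (x axis) of the 31 p53 target genes (y axis, by role) in 4 comparisons, with lines for the 95% counting intervals and dashed lines at 1.5-fold. Filled circles are at least 1.5-fold with an interval that excludes 0, which are 9 genes in shYthdf2+EV against shScram+EV, 4 in shYthdf2+DF2WT against shYthdf2+EV, 0 in shYthdf2+DF2Mut against shYthdf2+EV and 6 in shYthdf2+DF2Mut against shYthdf2+DF2WT.

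Wild-type YTHDF2 in the knockdown background was compared next, as the wild-type rescue against the knockdown, to ask what the rescue restores. This comparison shares the knockdown library with the first, so its values stand beside those above and are not independent of them. Of the members 23 were lower in the rescue and 8 were higher, with a median log2 ratio of -0.18 beside 0.003 over all genes, and 19 were lower and 3 higher beyond counting error. Beyond counting error were also 21.6% of all genes tested as lower and 21.2% as higher, or 29.2% and 27.7% of those averaging at least 200 reads. None differed by 2-fold, beside 10.7% of all genes tested. By the 1.5-fold rule 3 members were lower, beside 6.4% of all genes, and 1 was higher, beside 7.17%. The lower ones were *Perp* (-0.70, interval -0.84 to -0.57), *Plk2* (-0.60, -0.70 to -0.51) and *Pmaip1* (-0.59, -0.69 to -0.49). After a correction for GC content and exon length, described below, *Perp* was at -0.65, and *Plk2* (-0.55) and *Pmaip1* (-0.43) were below 1.5-fold. The higher one was *Ddit4*, which encodes an inhibitor of the growth kinase mTOR and is induced by many stresses.

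*Ddit4* followed another order than *Perp* and *Plk2*. It was at 109 CPM in the control, 94.9 in the knockdown, 159 in the wild-type rescue and 79.4 in the mutant rescue, so that the wild-type rescue stood above the other 3 libraries. Its log2 ratio was 0.74 (0.65 to 0.83) in the wild-type rescue against the knockdown, and 0.52, below 1.5-fold, after the correction.

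Against the control the wild-type rescue had 20 members higher and 11 lower, with a median log2 ratio of 0.09 beside 0.006 over all genes. By the 1.5-fold rule 3 members were higher, *Fas* (1.24, 0.38 to 2.31), *Bbc3* (0.92, 0.69 to 1.14) and *Phlda3* (0.61, 0.46 to 0.75), beside 3.49% of all genes, and none was lower, beside 2.17%. After the correction for GC content and length *Fas* was at 1.33 and *Bbc3* at 0.67, and *Phlda3*, at 0.25, was below 1.5-fold. *Fas* was the 1 member past 2-fold, beside 6.89% of all genes, on few reads. *Perp*, at 0.07 (-0.09 to 0.23), did not differ beyond counting error, *Plk2* was still higher by 0.28 (0.17 to 0.40), and *Pmaip1* by 0.12 (0.01 to 0.24). The 3 feedback genes had values between -0.18 and -0.06 here, and after the correction *Mdm2* (0.04) and *Trp53inp1* (0.14) turned positive and *Ccng1* was at -0.05.

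Mutated YTHDF2 was set against the knockdown library in the same way. In the mutant rescue against the knockdown 13 members were higher and 18 lower, with a median of -0.05 beside 0.007 over all genes. No member met either rule, beside 6.03% of all genes past 2-fold and 2.01% higher and 3.19% lower by the 1.5-fold rule. The lowest ratios were those of *Bbc3* (-0.44, -0.66 to -0.23) and *Phlda3* (-0.38, -0.50 to -0.25), and the highest was that of *Ercc5* (0.23, 0.11 to 0.33). *Plk2* and *Perp* were at 0.02 (-0.07 to 0.11) and 0.06 (-0.06 to 0.18), so the mutant rescue and the knockdown did not differ in them beyond counting error.

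The rescues were compared directly, as the mutant rescue against the wild-type rescue, to ask what depends on m6A binding. This comparison shares no library with the knockdown against the control. In it 19 members were higher with mutated YTHDF2 and 12 lower, and the median log2 ratio was 0.16 beside -0.01 over all genes. Beyond counting error 17 were higher, beside 23.9% of all genes and 33.6% of those averaging at least 200 reads, and 6 were lower, beside 23.7% and 31.1%. None passed 2-fold, beside 11.6% of all genes. By the 1.5-fold rule 4 members were higher, beside 7.04% of all genes tested and 5.08% of those averaging at least 200 reads, and 2 were lower, beside 9.3% and 6.91%. The share of members that met the rule was thus above that of all genes as higher and below it as lower, on few members each. Higher were *Perp* (0.76, 0.63 to 0.90), *Eda2r* (0.70, 0.59 to 0.80), *Polk* (0.64, 0.50 to 0.77) and *Plk2* (0.62, 0.52 to 0.72). Lower were *Ddit4* (-0.999, -1.10 to -0.90), just short of 2-fold, and *Bbc3* (-0.62, -0.83 to -0.40).

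Side by side, 16 of the 31 members (51.6%) were higher both in the knockdown against the control and in the mutant against the wild-type rescue, and 30.5% of all genes tested were. A further 10 were higher in the knockdown and lower in the mutant rescue, 3 the reverse, and 2 were lower in both. Taken singly, 26 members were higher in the first comparison and 19 in the second, so the joint share largely restates these tallies. *Plk2* and *Perp* were the 2 members that met the 1.5-fold rule as higher in both, and *Bbc3* met it as higher in the first and lower in the second. Across the 31 members Pearson's r between the ratios of both comparisons was 0.20 and Spearman's rho 0.185, and across all genes tested they were 0.384 and 0.361. The apoptosis genes *Bax* and *Phlda3*, at least 1.5-fold higher in the knockdown, had values of -0.04 (-0.13 to 0.04) and -0.17 (-0.30 to -0.04) in the mutant against the wild-type rescue.

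GC content moved with the ratios in every comparison that includes a rescue library. The GC content of the members' transcripts ran from 38.8% to 65.2% with a median of 49.7%, close to the median of 49.9% for all genes. In the mutant rescue against the wild-type rescue Spearman's rho between GC content and ratio was -0.623 over the 31 members and -0.394 over all genes measured in the same libraries. Over the members it was 0.419 in the wild-type rescue against the knockdown, -0.578 in the mutant rescue against the knockdown and 0.588 in the wild-type rescue against the control. In the mutant against the wild-type rescue the 15 members of lowest GC content had a median ratio of 0.40, and 13 of them were higher. The 15 of highest GC content had a median of -0.05 in that comparison, and 5 were higher. In the knockdown against the control rho was 0.0649 over the members, and the corresponding medians were 0.25 and 0.29. After the median of genes of like GC content and exon length was subtracted, the mutant against the wild-type rescue had 24 members higher and 7 lower with a median of 0.18, and 5 members changed sign, *Bax* (to 0.39), *Phlda3* (to 0.26), *Gadd45a*, *Ptp4a3* and *Dcxr*. *Perp* and *Plk2* were then at 0.78 and 0.64, *Polk* and *Eda2r* at 0.32 and 0.36, *Ddit4* at -0.67 and *Bbc3* at -0.28, so that 3 of the 6 members past 1.5-fold were still past it. The knockdown against the control kept 25 members higher, with a median of 0.30. In the GC-rich *Bbc3*, *Bax* and *Phlda3* the knockdown ratios became 0.64, 0.51 and 0.71, and *Bax* was the 1 of 9 members no longer past 1.5-fold.

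**Figure D4:**
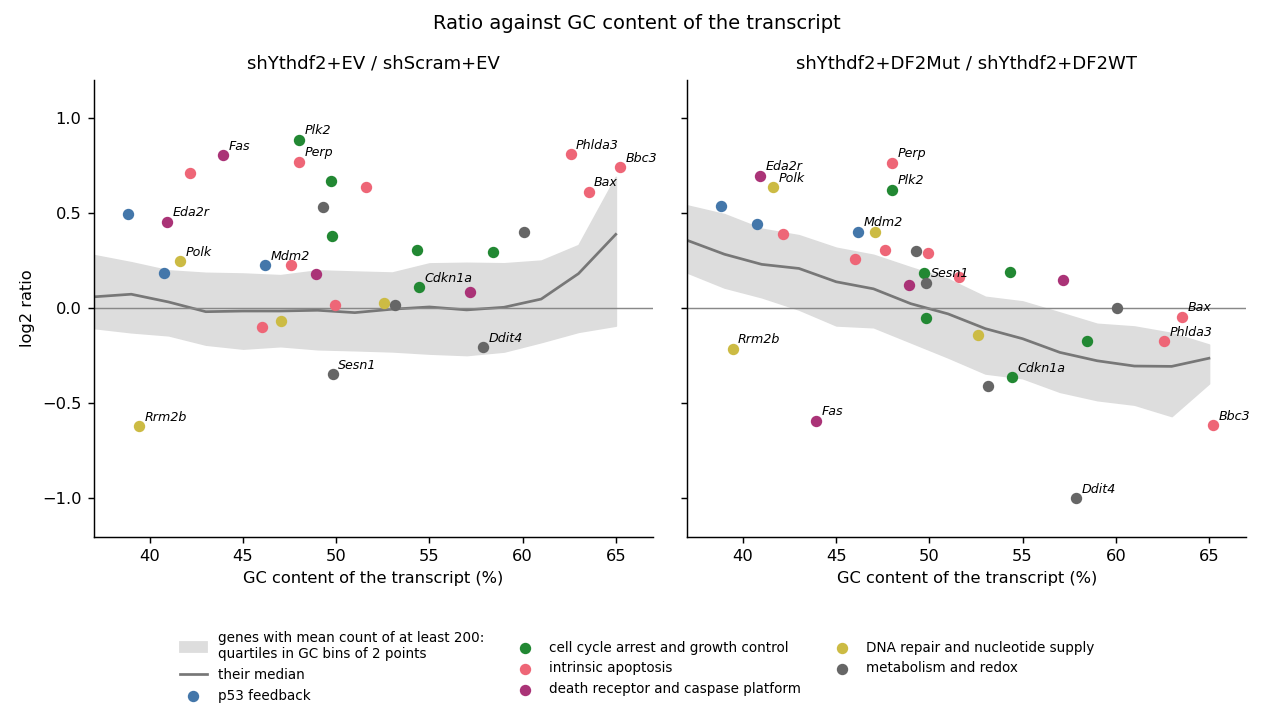
Log2 ratio (y axis) against GC content of the transcript in percent (x axis) for the 31 p53 target genes, coloured by role, over the median and quartiles of genes averaging at least 200 reads. The members show little slope in shYthdf2+EV against shScram+EV (left, rho 0.0649) and fall with GC content in shYthdf2+DF2Mut against shYthdf2+DF2WT (right, rho -0.623).

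The regulators of p53 were measured beside its targets. *Trp53*, the gene of p53 itself (mm39, chr11:69471174-69482699), had 11854 reads in the control, 15605 in the knockdown, 12522 in the wild-type rescue and 13670 in the mutant rescue, a knockdown ratio of 0.21. Of 19 regulators 12 were higher in the knockdown and 7 lower, with a median of 0.10, and 1 met the 1.5-fold rule, the p53 relative *Trp73* (ratio 0.93). Another relative, *Trp63*, had a ratio of 1.18 on few reads, with a counting interval that included 0. The Mdm2 partner *Mdm4* was at -0.10, *Ppm1d*, a phosphatase that is itself a p53 target, at 0.44, and *Cdkn2a*, whose ARF product inhibits Mdm2, at 0.24. In the wild-type rescue against the knockdown 16 of the 19 were lower (median -0.14). The largest ratio of a regulator between the rescues was that of the deacetylase gene *Sirt1*, 0.82 higher with mutated YTHDF2.

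Of 32 further genes known as p53 targets, 31 were tested. In the knockdown 23 were higher and 8 lower with a median of 0.32, 9 of them higher and 3 lower by the 1.5-fold rule. Among those averaging at least 50 reads, the largest ratios were those of the secreted protein genes *Thbs1* (2.01, 23 and 107 reads in the control and the knockdown) and *Igfbp3* (1.33, 252 and 722 reads) and of *Rprm*, a G2 arrest gene (1.82, 28 and 114 reads). In the mutant against the wild-type rescue 20 of the 31 were higher and 11 lower, with a median of 0.10. Genes repressed downstream of p21 through the DREAM complex, 33 in all, had the opposite direction with smaller values in the knockdown against the control. In the knockdown 22 were lower and 11 higher with a median of -0.10, and 1 was lower by the 1.5-fold rule, the transcription factor gene *E2f1* (-0.61). In the wild-type rescue against the knockdown 19 were lower and 14 higher (median -0.03). In the mutant against the wild-type rescue 18 were higher and 15 lower (median 0.02). The medians of both comparisons thus had the members' directions. Against the control 25 were lower and 8 higher in the wild-type rescue (median -0.09).

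Other programmes also differed between these libraries. Of the 22 tested genes of the 2-cell embryo all were higher in the knockdown, 20 of them by the 1.5-fold rule, with a median of 1.76. Their medians were -1.51 in the wild-type rescue against the knockdown and 1.28 in the mutant against the wild-type rescue, and their summed level was 322.3, 983.4, 380.2 and 930.0 CPM in the control, the knockdown, the wild-type rescue and the mutant rescue. Genes driven by the stress factor ATF4, which also regulates some of the members, had a median of 0.31 in the knockdown, with 15 of 19 higher. *Atf4* itself had 979 reads in the control and 2221 in the knockdown. Immediate early genes had a median of -0.26 in the knockdown and -0.45 in the mutant against the wild-type rescue, with *Fos* at -1.64 and -1.57. The part of these programmes in the members' values was not tested.

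**Figure D5:**
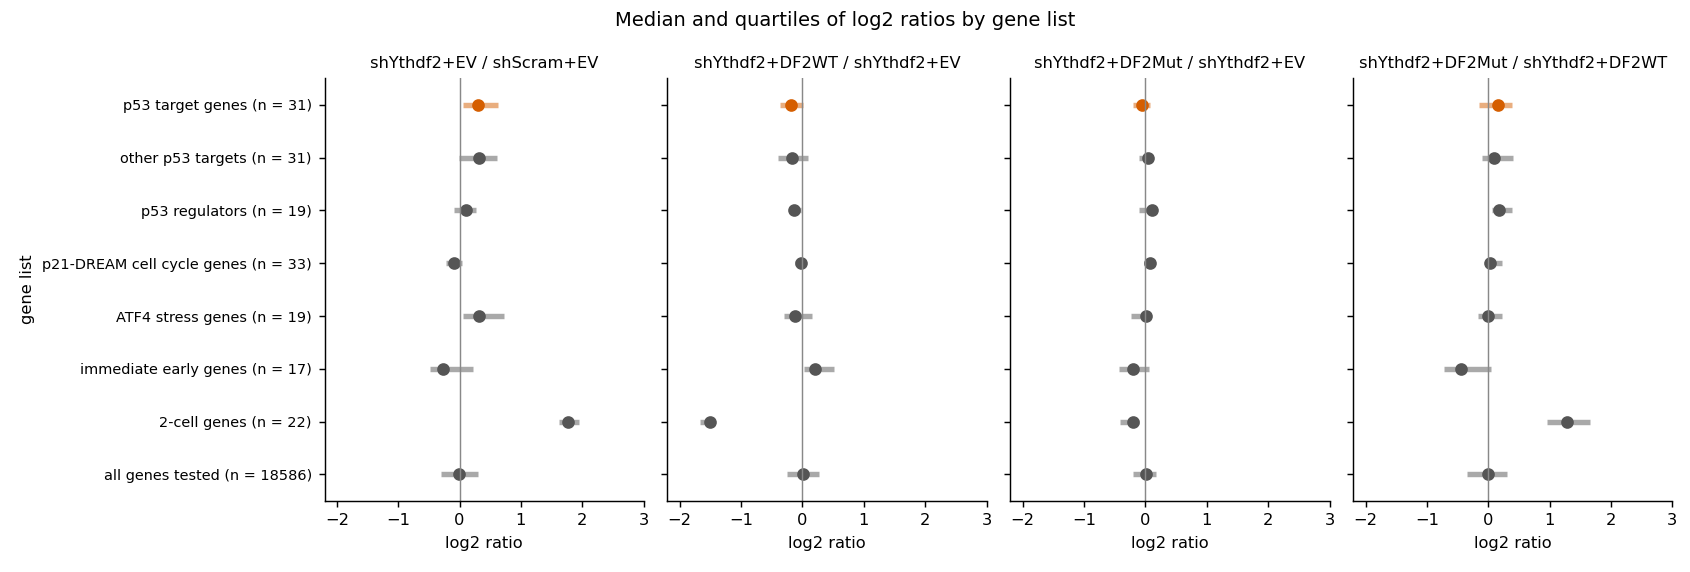
Median (circle) and quartiles (bar) of log2 ratios (x axis) for p53 target genes, 6 other gene lists and all genes tested (y axis) in 4 comparisons. In shYthdf2+EV against shScram+EV the p53 target genes sit at 0.29, the other p53 targets at 0.32 and the 2-cell genes at 1.76, while all genes tested sit near 0.

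Markers of other cell types were present at low levels. Summed over 10 markers, primitive endoderm was at 142.3 CPM in the control, 164.1 in the knockdown, 155.2 in the wild-type rescue and 169.1 in the mutant rescue, with *Foxa2* at 0 reads in the control. Of the 9 tested, 7 were higher in the knockdown against the control (median 0.56), 8 were lower in the wild-type rescue against the knockdown (-0.50) and 7 were higher in the mutant against the wild-type rescue (0.36), the directions of the members' own medians. *Dab2*, at 99, 237, 81 and 265 reads in the same order, and *Gata6*, at 85, 163, 69 and 143, met the 1.5-fold rule in all 3 of these comparisons. Most of the 9 were within counting error, 6, 5 and 6 of them in these comparisons. Trophectoderm markers were at 148, 104.1, 142 and 108.4 CPM in the control, the knockdown, the wild-type rescue and the mutant rescue, lower in the libraries where the members' sum was higher. In the knockdown 7 of the 10 trophectoderm markers were lower and 3 higher. Fibroblast markers were at 45.6, 28.8, 38.3 and 30.3 CPM with between 2 and 4 of 10 at 0 reads, and neural and mesoderm markers at 35.1 to 39.2 CPM, where the mesoderm gene *T* had 0 reads in every library. Of the 7 tested neural and mesoderm markers 5 were higher and 2 lower in the knockdown. Their *Kdr*, at 30, 154, 80 and 138 reads in the same order, met the 1.5-fold rule in the same 3 comparisons as *Dab2* and *Gata6*, with the same directions. The part of these cells in the members' values was not tested.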

How the data were processed

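The authors deposited read counts and summed exon lengths for 50559 genes in 1 table. Per the file headers, the counts were made with featureCounts 2.0.3 at exons on the UCSC mm39 RefSeq annotation. Reads and not pairs were counted, without strand, and reads of several places or genes were left out. The submitters' processing notes name fastp 0.19.4, HISAT2 2.2.1, DESeq2 1.40.2 and the build mm10, which differs from the headers' mm39. Gene positions are those of the table.

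Libraries were scaled by TMM (edgeR 4.0.16, R 4.3.3), with factors between 0.976 and 1.01 computed on the genes averaging at least 10 reads. Log2 ratios used a prior count of 0.5. FPKM values are reads per kilobase of exon per 1000000 reads. Intervals are 95% Clopper-Pearson intervals on read pairs, taken as reads divided by 2. Reads are not independent molecules, so intervals and floors cover counting error only. GC content came from GENCODE vM21 transcripts of the same symbol, for all 31 members and 90.0% of the genes tested. Ratios were recovered on simulated data before use.

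The members, gene lists and tests were chosen with earlier results of these data known. Values in every library are given for *Cdkn1a*, *Mdm2*, the 3 members of highest FPKM, and members that met the 1.5-fold rule in at least 1 of the 4 comparisons. Other members are given by ratio. From other lists at most 3 genes with the largest ratio were named, beside *Trp53*, *Mdm4*, *Ppm1d*, *Cdkn2a* and *Ythdf2*, and *Trp63* and markers at 0 reads were named after their values were seen. Promoters were read from the RefSeq table for GRCm38.p6.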

Additional observations from a re-analysis of the deposited data

How the results depend on the processing

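No paired analysis was possible because each group had 1 library. Libraries were also scaled by their totals, by upper quartiles or by DESeq2 1.42.0. Other alternatives were a prior count of 5, filters at averages of 1, 50 or 200 reads, another call rule, summed counts and subtraction of the median of genes of like GC content and length. For summed counts the log2 ratio of the members' sums was taken in place of their median. The members' log2 ratio, as this median or ratio of sums, kept its sign under every one of these: 0.27 to 0.34 in shYthdf2+EV against shScram+EV, -0.27 to -0.16 in shYthdf2+DF2WT against shYthdf2+EV, -0.07 to -0.01 in shYthdf2+DF2Mut against shYthdf2+EV, 0.13 to 0.25 in shYthdf2+DF2Mut against shYthdf2+DF2WT and 0.04 to 0.14 in shYthdf2+DF2WT against shScram+EV. The number of members past 2-fold was 0 in the first 4 of these comparisons and 1 in the last. At 1.5-fold with an interval that excludes 0 it was 9, 4, 0, 6 and 3 in the same order. With total counts or upper-quartile scaling it was 1 in shYthdf2+DF2Mut against shYthdf2+DF2WT, where *Ddit4* passed 2-fold, and among genes averaging at least 200 reads it was 0 in shYthdf2+DF2WT against shScram+EV, where *Fas* was filtered out. Of the values of single genes (the members, *Trp53* and *Ythdf2*) under the alternatives 759 moved by less than their counting interval, 65 moved out of it under the GC and length correction and 1 with total counts. In this design the depth was ample for most members (median mean count 2725 reads), and *Fas*, at 51.2 reads, was the member whose ratios it limited most. Other members of low count also had wide intervals, such as *Dcxr* (283 reads, 0.06 to 0.74 in shYthdf2+EV against shScram+EV).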

Other observations

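Members of 1 list followed different orders across the libraries. *Perp*, *Plk2*, *Eda2r* and *Trp53inp1* were high in shYthdf2+EV and shYthdf2+DF2Mut and low in the other libraries, *Rrm2b* and *Sesn1* were highest in shScram+EV, and *Ddit4*, *Bbc3*, *Fas*, *Ephx1*, *Xpc* and *Cdkn1a* were highest in shYthdf2+DF2WT. For *Bbc3*, *Fas* and *Xpc* the difference between shYthdf2+DF2WT and shYthdf2+EV was within counting error. After the GC and length correction this ratio was -0.0017 for *Bbc3* and -0.048 for *Xpc*. These groups were formed after the values were seen and received no test.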
